A study of Homo sapiens with 12 samples.

Results

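The genes described here encode 42 lysosomal proteins: 8 proteins of the lysosomal membrane or lumenal surface, 10 proteases, 1 thiol reductase, 9 glycosidases, 4 sulfatases, 5 proteins of lipid handling, 2 acid phosphatases, progranulin, and the transcription factors TFEB and TFE3. They were chosen by name, with earlier results of these data known. All 42 symbols matched 1 identifier each among the 61487 identifiers of the count table, and 39 passed the filter on low counts. CD68, LGMN and IFI30 did not pass it and were not tested. The genes lie on 20 chromosomes and no chromosome held more than 4 of them.

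Lysosomes are the acidic compartments in which proteins, sugar chains and lipids delivered by endocytosis, phagocytosis or autophagy are broken down. Their soluble enzymes are sorted there from the Golgi apparatus, mostly on mannose 6-phosphate receptors, and work beneath a membrane lined with heavily glycosylated proteins such as LAMP1 and LAMP2. TFEB and TFE3 are basic helix-loop-helix factors that enter the nucleus when mTORC1 is inactive and bind E-box sequences in the promoters of many lysosomal genes. In monocytes and macrophages, lysosomal content increases as the cells mature.

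The cells were MOLM14, an established human line of monocytic acute myeloid leukemia, and carried an shRNA against RIP140 that doxycycline (DOX) switches on; their RNA was sequenced. RIP140 is a coregulator of nuclear receptors encoded by NRIP1. All 4 groups carried the shRNA construct, and each held 3 libraries labelled as biological replicates. The ATRA+DOX group received the retinoid all-trans retinoic acid (ATRA) at 1 µM over 48 h and DOX at 50 ng/mL. The ATRA group received ATRA alone, the DOX group received DOX alone, and the untreated group received neither. The labels do not state how long DOX was given. These libraries come from a single cell line. The labels list no group with DOX and another shRNA, so an effect of DOX itself and an effect of the shRNA cannot be told apart.

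The smallest library, DOX replicate 3, held 2685984 counts and the largest, DOX replicate 2, held 19358619. Levels are given as CPM, a gene's counts scaled to its library's total. NRIP1 measured 15.9 to 20.9 CPM in ATRA+DOX libraries, 38.5 to 51.9 in ATRA libraries, 15.0 to 19.2 in DOX libraries and 53.3 to 59.7 in untreated libraries. By edgeR's quasi-likelihood test with Benjamini-Hochberg adjustment, the log2 fold change of NRIP1 was −1.22 ± 0.13 (SE) for ATRA+DOX against ATRA (adjusted p = 2.82e-06) and −1.77 ± 0.13 for DOX against untreated (adjusted p = 3.39e-08). All 8 myeloid markers examined were measured, with sums of 2043 to 2216, 1952 to 2115, 1872 to 1927 and 1580 to 1735 CPM in ATRA+DOX, ATRA, DOX and untreated libraries. Of 8 lymphoid markers 3 passed the filter on low counts. Of 8 erythroid and megakaryocyte markers 1 did, and of 8 fibroblast and epithelial markers 1 did (KRT18). The share of counts on mitochondrial ribosomal RNA genes was 1.24% to 2.02% in ATRA+DOX, 2.09% to 2.75% in ATRA, 1.02% to 2.18% in DOX and 2.54% to 4.60% in untreated libraries, so it was lower in every DOX library than in every untreated one.

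The sequence that TFEB and TFE3 are known to bind contains the palindrome CACGTG. RefSeq promoter windows on GRCh38.p14, from 250 bases before to 50 after a gene's start, were present for 32 of the 42 genes, in 50 windows. CACGTG, which reads the same on both strands, was found in 12 of these 50 windows (11 of 32 genes), against 7.26% of all 35116 windows (8.77% of 27305 genes). The longer palindrome TCACGTGA, which contains it, was found in 6 of the 50 windows (5 genes: CLN3, CTSA, GAA, LAMP1 and MCOLN1), against 0.98% of all windows. The half-site AGGTCA, searched on both strands and known from retinoic acid receptor binding sites, was found in 4 of the 50 windows (CD63, CLN3 and FUCA2), against 13.8% of all windows. The direct repeat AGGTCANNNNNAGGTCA was in none of the 50 windows and in 0.0057% of all windows. A match describes letters in a window and not a bound site.

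The stretches below show the matches of 5 genes whose promoters hold CACGTG upstream of the annotated exons. They include a membrane protein, a channel, glycosidases and a sulfatase. The proteases CTSA and CTSD were also picked but held no match in such a stretch. Each is written 5′ to 3′ on the gene's strand, and capitals mark CACGTG.
LAMP1, chr13:113297039-113297238, plus strand: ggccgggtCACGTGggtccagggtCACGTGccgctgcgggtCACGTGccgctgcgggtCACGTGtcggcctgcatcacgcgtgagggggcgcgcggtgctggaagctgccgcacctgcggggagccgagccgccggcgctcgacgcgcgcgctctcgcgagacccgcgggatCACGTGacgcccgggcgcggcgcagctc
MCOLN1, chr19:7522424-7522623, plus strand: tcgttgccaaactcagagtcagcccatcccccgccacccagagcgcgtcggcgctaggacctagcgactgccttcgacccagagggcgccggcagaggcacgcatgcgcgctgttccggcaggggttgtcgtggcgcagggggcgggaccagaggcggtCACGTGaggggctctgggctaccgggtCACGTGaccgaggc
GAA, chr17:80101356-80101555, plus strand: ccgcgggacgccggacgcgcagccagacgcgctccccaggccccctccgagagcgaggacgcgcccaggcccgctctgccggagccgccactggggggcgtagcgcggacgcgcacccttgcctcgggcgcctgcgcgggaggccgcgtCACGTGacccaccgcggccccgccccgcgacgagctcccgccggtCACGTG
NEU1, chr6:31862907-31863071, minus strand: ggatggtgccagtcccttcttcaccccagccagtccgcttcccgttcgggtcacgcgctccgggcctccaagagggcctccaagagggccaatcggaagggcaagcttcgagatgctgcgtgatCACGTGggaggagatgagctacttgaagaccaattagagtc
ARSB, chr5:78986088-78986208, minus strand: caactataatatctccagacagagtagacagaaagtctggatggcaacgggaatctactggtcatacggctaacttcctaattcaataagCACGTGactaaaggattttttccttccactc
The LAMP1 stretch holds 5 copies, 4 of them close together at its 5′ end. GAA and MCOLN1 hold 2 copies each, and NEU1 and ARSB hold 1 each. The other genes with a match were ACP5, CD63, CLN3, CTSA, CTSD and IFI30.

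The question addressed by the ATRA comparison is how the cells respond to the retinoid. ATRA raised most of the lysosomal genes: of the 39 tested, 31 were higher and 1 was lower in ATRA than in untreated cells (edgeR quasi-likelihood, adjusted p under 0.05). Over all 16104 genes tested, 28.8% were called in this comparison, 15.7% higher and 13.2% lower. The median log2 fold change of the 39 genes was 0.74, against −0.01 over all genes tested. SGSH, ACP5 and IDS passed the filter on low counts only with the libraries given ATRA, so the counts and medians are also given without them: 29 of the other 36 genes were higher and 1 lower, with a median of 0.73. In 34 of the 39 genes every ATRA library was above every untreated library, and in 1 every ATRA library was below. Over all genes tested 45.3% were so separated, 22.8% upward and 22.5% downward. SGSH and ACP5 are among the 34 and, given how they passed the filter, add no support. Summed over the 42 genes, expression was 6166 ± 184 CPM in ATRA cells and 2497 ± 110 CPM in untreated cells (SD, n = 3 each). In bulk RNA, more cells with a given transcript and more of it per cell cannot be told apart.

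**Figure D1:**
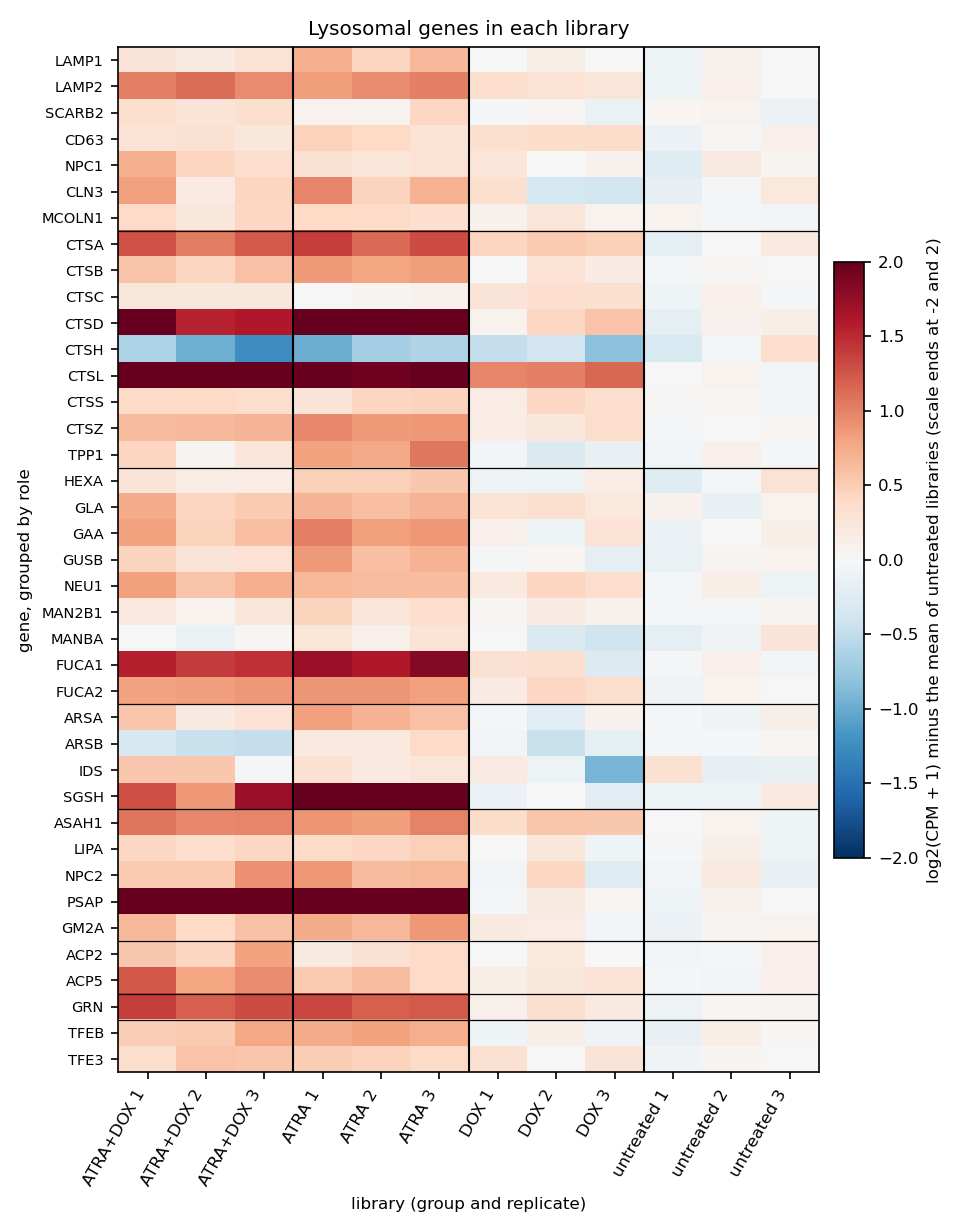
Each row is 1 of the 39 tested lysosomal genes, grouped by role, and each column 1 library; color gives log2(CPM + 1) minus the mean of the 3 untreated libraries, with the scale ending at −2 and 2. The 6 libraries with ATRA, on the left, are red in most rows, among the deepest PSAP, CTSL, CTSD and SGSH, while CTSH is blue.

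PSAP accounted for the larger part of the summed difference. PSAP encodes prosaposin, the precursor of the saposins that present sphingolipids to lysosomal hydrolases. Its level was 2530, 2406 and 2507 CPM in ATRA libraries and 253, 288 and 274 CPM in untreated libraries, groups that lay far apart. The log2 fold change was 3.19 ± 0.11 (9.13-fold, adjusted p = 1.37e-16, edgeR). PSAP made up 60.2% of the difference in summed CPM between ATRA and untreated cells. Without it, the other 41 genes summed to 3685 ± 118 CPM in ATRA cells and 2225 ± 93.0 CPM in untreated cells, a ratio of 1.66. Per kilobase of exon, PSAP ranked first of the 42 genes in ATRA cells at 861 CPM per kb and second in untreated cells at 94.3 CPM per kb, behind CTSZ at 125 CPM per kb.

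Among the other genes of lipid handling, all 4 rose. ASAH1 (acid ceramidase) measured 93.1, 89.7 and 101 CPM in ATRA libraries and 50.1, 52.7 and 47.3 CPM in untreated libraries, a log2 fold change of 0.92 ± 0.08 (adjusted p = 1.06e-08, edgeR). GM2A (the GM2 ganglioside activator), NPC2 (a soluble cholesterol carrier) and LIPA (acid lipase, which frees cholesterol from its esters) rose by log2 0.77 ± 0.10, 0.77 ± 0.15 and 0.43 ± 0.09. GENCODE 29 lists 2 pseudogenes named after GM2A, so its reads may be shared with them.

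Of the 9 proteases tested, 7 rose, 1 fell and 1 was not called. CTSD, the aspartic protease cathepsin D, measured 90.6, 80.0 and 91.6 CPM in ATRA libraries and 15.9, 19.5 and 19.9 CPM in untreated libraries. That is a log2 fold change of 2.23 ± 0.14 (adjusted p = 3.27e-11, edgeR). In GENCODE 29, CTSD shares 61.4% of its exon bases with the gene model AC068580.4 on the same strand, which held 0 to 6 counts per library, so its level is uncertain. CTSL, the cysteine protease cathepsin L, measured 49.9, 44.0 and 46.8 CPM in ATRA libraries and 10.5, 11.2 and 10.2 CPM in untreated libraries (log2 2.14 ± 0.16, adjusted p = 4.35e-09, edgeR). GENCODE 29 lists 5 pseudogenes named after CTSL, and reads shared with them are uncertain.

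CTSA, the serine carboxypeptidase that also protects neuraminidase, measured 155, 130 and 147 CPM in ATRA libraries and 52.0, 58.3 and 67.5 CPM in untreated libraries (log2 1.28 ± 0.10, adjusted p = 3.99e-10, edgeR). Genes on the opposite strand, NEURL2, AL008726.1 and PLTP, overlap 29.6% of its exon bases. CTSZ, the carboxypeptidase cathepsin Z, measured 364, 337 and 341 CPM in ATRA libraries and 183, 187 and 191 CPM in untreated libraries (log2 0.89 ± 0.08, adjusted p = 3.15e-09, edgeR). None of these cathepsins had overlapping groups. CTSB, a cysteine protease, and TPP1, tripeptidyl peptidase, rose by log2 0.83 ± 0.08 and 0.89 ± 0.10, and CTSS, a cysteine protease active in antigen processing, by 0.38 ± 0.08.

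CTSH, the aminopeptidase cathepsin H, went the other way. It measured 2.29, 3.08 and 3.28 CPM in ATRA libraries and 4.25, 5.40 and 7.24 CPM in untreated libraries, a low level with no overlap between the groups. Its log2 fold change was −1.01 ± 0.25 (adjusted p = 0.00379, edgeR), and the call was lost with all libraries thinned to equal depth (adjusted p = 0.130). CTSC, the dipeptidyl peptidase that activates granule serine proteases, was not called, at 186 ± 5.98 CPM in ATRA cells and 180 ± 11.4 CPM in untreated cells (SD, n = 3 each; log2 0.04 ± 0.07). Cathepsins thus moved in both directions.

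Glycosidases, which take sugars off glycoproteins and glycolipids, rose in 8 of 9 cases. FUCA1, the lysosomal alpha-L-fucosidase, measured 46.0, 42.3 and 49.9 CPM in ATRA libraries and 12.8, 14.2 and 12.8 CPM in untreated libraries (log2 1.80 ± 0.12, adjusted p = 2.50e-11, edgeR). The groups did not overlap. FUCA2, the second fucosidase, rose less, with log2 0.87 ± 0.08, and so did GAA (acid alpha-glucosidase, which degrades glycogen) with 0.91 ± 0.11. GUSB (beta-glucuronidase), GLA (alpha-galactosidase A), NEU1 (neuraminidase), HEXA (the alpha subunit of hexosaminidase) and MAN2B1 (an alpha-mannosidase) rose by log2 0.72 ± 0.09, 0.66 ± 0.10, 0.65 ± 0.10, 0.48 ± 0.12 and 0.35 ± 0.08. MANBA, a beta-mannosidase, was not called (log2 0.19 ± 0.12). The HEXA call was lost at equal depth (adjusted p = 0.266, edgeR). GENCODE 29 lists 11 pseudogenes named after GUSB, so reads shared with them make its level uncertain. MAN2B1 is uncertain too, since 2 same-strand gene models cover 22.0% and 13.7% of its exon bases.

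Of the 4 sulfatases, SGSH and ARSA were called higher. SGSH, the sulfamidase of heparan sulfate breakdown, measured 3.69, 4.14 and 3.66 CPM in ATRA libraries and 0.0966, 0.0857 and 0.331 CPM in untreated libraries. These values rest on 135 counts in the 3 ATRA libraries and 8 counts in the 3 untreated libraries. The fitted log2 fold change was 4.22 ± 0.47 (adjusted p = 1.96e-07, edgeR), and its size depends on the few untreated counts. Since SGSH was tested only because its ATRA libraries were high, these values describe it and give no independent support. ARSA, which desulfates sulfatide, rose by log2 0.74 ± 0.13. ARSB, the arylsulfatase of dermatan and chondroitin sulfate, measured 65.3 ± 4.96 CPM in ATRA cells and 54.5 ± 1.45 CPM in untreated cells and missed the threshold (log2 0.26 ± 0.10, adjusted p = 0.0509, edgeR). IDS, iduronate sulfatase, was near 1 CPM and not called.

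Of the 7 membrane proteins tested 5 were higher. LAMP2 measured 224, 243 and 253 CPM in ATRA libraries and 118, 134 and 125 CPM in untreated libraries (log2 0.93 ± 0.08, adjusted p = 3.51e-09, edgeR). LAMP1, its close relative, rose by log2 0.60 ± 0.08, at 272 ± 27.2 CPM in ATRA cells and 179 ± 10.8 CPM in untreated cells. CLN3, a multi-pass membrane protein mutated in Batten disease, CD63, a tetraspanin of late endosomes, and MCOLN1, the mucolipin calcium channel, rose by log2 0.79 ± 0.22, 0.38 ± 0.08 and 0.39 ± 0.10. The CLN3 call was lost without ATRA replicate 1 (adjusted p = 0.0647, edgeR) and the MCOLN1 call at equal depth (adjusted p = 0.673, log2 0.11). CLN3 shares 36.7% of its exon bases with a same-strand gene model in GENCODE 29, which makes its level uncertain. SCARB2, an integral membrane protein of lysosomes, and NPC1, the membrane cholesterol transporter, were not called (log2 0.20 ± 0.11 and 0.28 ± 0.12).

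GRN, the precursor of granulins, measured 337, 306 and 312 CPM in ATRA libraries and 124, 136 and 138 CPM in untreated libraries (log2 1.26 ± 0.08, adjusted p = 3.27e-11, edgeR). TFEB measured 70.0, 73.2 and 68.8 CPM in ATRA libraries and 37.2, 45.3 and 42 CPM in untreated libraries. It rose by log2 0.77 ± 0.10 (adjusted p = 1.87e-06, edgeR), with no overlap between the groups. TFE3 measured 34.9, 34.4 and 32.4 CPM in ATRA libraries and 23.5, 25.6 and 24.8 CPM in untreated libraries (log2 0.46 ± 0.10, adjusted p = 0.00176, edgeR). Their activity is known to be set largely by their location in the cell, which RNA does not measure. Of the acid phosphatases, ACP2 was not called (log2 0.30 ± 0.13). ACP5, the tartrate-resistant phosphatase of osteoclasts and macrophages, held 22 counts in 3 ATRA libraries and 6 in 3 untreated libraries (log2 1.99 ± 0.61, adjusted p = 0.0159, edgeR), and it entered the test only through the ATRA+DOX libraries. The ACP5 call did not hold when replicate 1 or 2 of either group was left out (adjusted p from 0.0521 to 0.0628, edgeR).

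The genes that rose were found with and without CACGTG in the window. Of the 10 tested genes with a match 9 rose, with a median log2 fold change of 0.72 over the 10. Of the 20 tested genes with a window and no match 14 rose, with a median of 0.69, so the medians lay close together. In ATRA+DOX against DOX, 5 of the 10 genes with a match were called higher (median 0.48) and 16 of the 20 without (median 0.42). ACP5 is among the 9 and among the 5. It passed the filter only through the ATRA+DOX libraries and adds no support. ARSB, with 1 copy, was the gene with a match that was not called in ATRA against untreated.

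Other lysosomal genes, taken from lists outside the 42, moved in the same direction. These lists were also chosen with earlier results of these data known, so they give no independent support. Over all genes tested 15.7% were higher and 13.2% lower in this comparison. Of 17 tested subunits of the V-ATPase, the proton pump that acidifies lysosomes, 12 were higher and none lower in ATRA than in untreated cells, with a median log2 fold change of 0.33. ATP6V0D1 rose by log2 0.64 ± 0.09 and ATP6AP1 by 0.61 ± 0.09. Of 27 other lysosomal hydrolases 19 were higher and none lower (median 0.46), among them SCPEP1, a serine carboxypeptidase (1.35 ± 0.10). Of 22 other lysosomal membrane proteins 12 were higher and 1 lower (median 0.36), and the amino acid transporter SLC38A9 rose by log2 1.04 ± 0.10. Of 14 sorting genes 8 were higher and none lower (median 0.34), including the sorting receptors SORT1 (1.25 ± 0.15) and SORL1 (0.96 ± 0.14). Of 18 autophagy genes 9 were higher and none lower (median 0.38), and the cargo receptor SQSTM1 rose by log2 0.86 ± 0.08.

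Of 17 regulators and relatives of TFEB 6 were higher and 1 lower, with a median log2 fold change of 0.19. RRAGD, a Rag GTPase that acts on mTORC1 at the lysosome, measured 14.6 ± 1.15 CPM in ATRA cells and 6.83 ± 1.22 CPM in untreated cells (log2 1.12 ± 0.18, adjusted p = 3.19e-05, edgeR). TFEC, a factor of the same family as TFEB, rose by log2 0.83 ± 0.14, and MITF, another, fell by 0.54 on the log2 scale (SE 0.19, adjusted p = 0.0325, edgeR). Of the cystatins, which inhibit cysteine cathepsins, CST3 rose by log2 0.80 ± 0.09 and CST7 fell by 1.59 on the log2 scale (SE 0.22).

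Of 13 markers of macrophage maturation 5 passed the filter on low counts, 3 of them higher and 1 lower in ATRA than in untreated cells, and CD14, MRC1 and CD163 were among those that did not. Their sum was 55.7 to 71.2 CPM in ATRA libraries and 38.2 to 43.0 CPM in untreated libraries, with C1QB without counts in both groups, MRC1 without counts in the ATRA libraries and MSR1 without counts in the untreated libraries. CSF1R, the receptor for macrophage colony-stimulating factor, rose by log2 1.89 ± 0.16 and ITGAX (CD11c) by 2.71 ± 0.27, while FCGR1A fell by 0.73 on the log2 scale (SE 0.13). CD68, a lysosomal protein often used to stain macrophages, held 21 counts in ATRA libraries and 18 in untreated libraries and was too low to test. In GENCODE 29, CD68 shares 95.3% of its exon bases with a same-strand gene model. Its level is therefore uncertain, and a low count need not mean low expression. The part of cell maturation in the rise of the lysosomal genes was not tested.

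With DOX present, ATRA was followed by a similar set of changes. In ATRA+DOX cells against DOX cells, 27 of the 39 genes were higher and none lower (edgeR quasi-likelihood), against 19% of all genes called, 10.7% higher and 8.21% lower. The median log2 fold change was 0.42, against −0.01 over all genes tested. Without SGSH, ACP5 and IDS, 25 of 36 genes were higher and the median was 0.41. This comparison shares no library with that of ATRA against untreated. Genes called higher in both numbered 24, out of 31 called higher without DOX and 27 called higher with it. SGSH and ACP5 are among these 24, though they passed the filter only with libraries given ATRA. The share of all genes called higher in both was not counted, so the 24 are given as a description. CD63, CLN3, CTSS, HEXA, LAMP1, MAN2B1 and MCOLN1 were called without DOX and missed the threshold with it, and ACP2, NPC1 and SCARB2 the reverse. Every ATRA+DOX library was above every DOX library in 29 genes and below in 2, CD63 and CTSC. Over all genes tested 30.2% were so separated, 16.7% upward and 13.5% downward. The 29 include SGSH and ACP5, which add no support for the same reason.

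**Figure D2:**
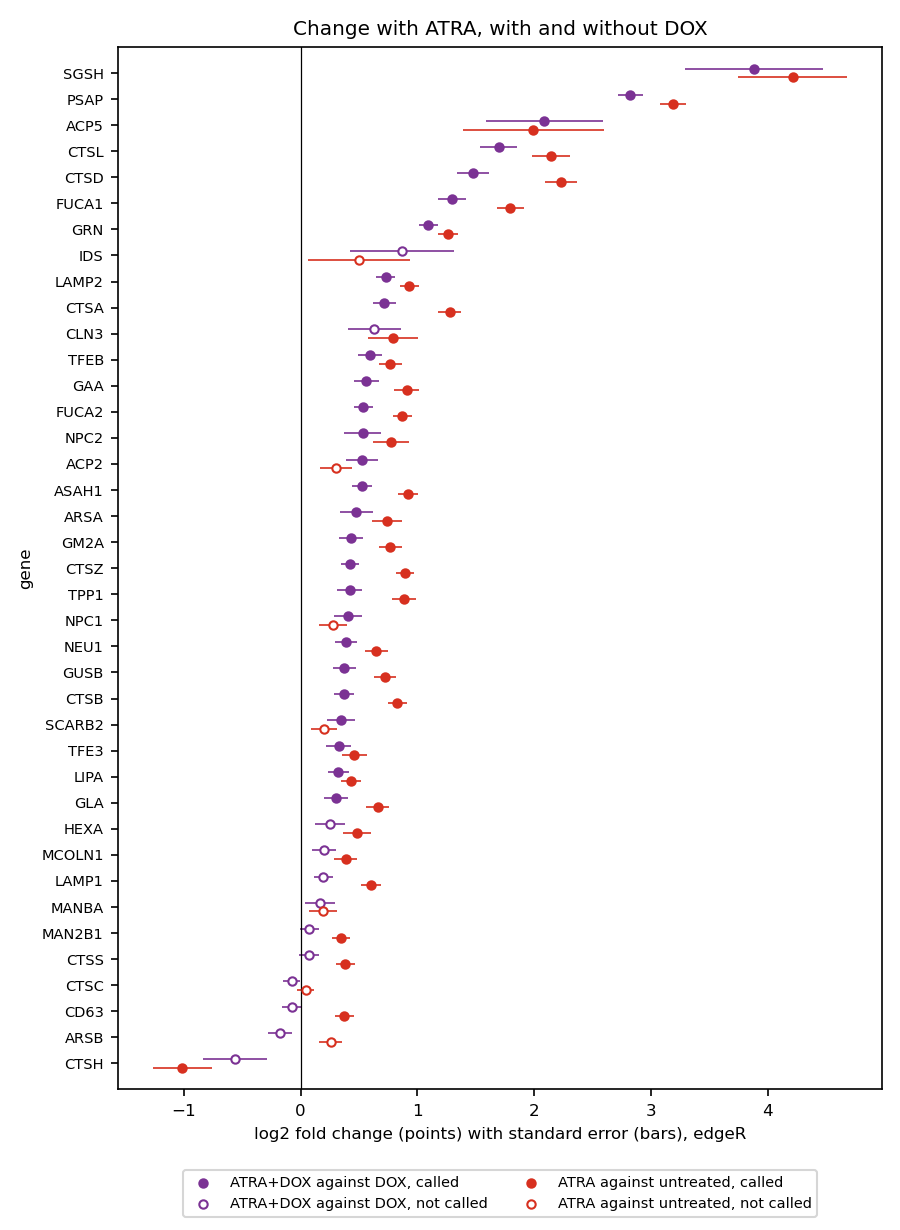
Log2 fold change of the 39 tested genes (points, with standard errors as bars) for ATRA+DOX against DOX and for ATRA against untreated; filled points passed the threshold of 0.05 on the adjusted p. For most genes the point with DOX lies left of the point without it, as for CTSD at 1.48 with DOX and 2.23 without.

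PSAP measured 1840, 2053 and 2150 CPM in ATRA+DOX libraries and 266, 309 and 278 CPM in DOX libraries (log2 2.82 ± 0.11, adjusted p = 1.91e-15, edgeR). The groups lay far apart here too, and PSAP made up 66.9% of the difference in summed CPM. The sum over the 42 genes was 5399 ± 139 CPM in ATRA+DOX cells and 2812 ± 103 CPM in DOX cells, and without PSAP it was 3385 ± 140 and 2528 ± 81.0 CPM (SD, n = 3 each). GRN measured 346, 304 and 330 CPM in ATRA+DOX libraries and 142, 165 and 151 CPM in DOX libraries (log2 1.09 ± 0.08, adjusted p = 1.05e-09, edgeR). FUCA1 measured 40.9, 36.5 and 38.4 CPM in ATRA+DOX libraries and 16.6, 16.8 and 10.8 CPM in DOX libraries (log2 1.30 ± 0.12, adjusted p = 2.13e-08, edgeR). Each of these genes kept its groups apart.

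CTSD measured 78.8, 55.6 and 58.1 CPM in ATRA+DOX libraries and 19.3, 24.8 and 27.6 CPM in DOX libraries (log2 1.48 ± 0.14, adjusted p = 7.49e-08, edgeR). CTSL measured 97.7, 55.5 and 65.9 CPM in ATRA+DOX libraries and 21.8, 22.4 and 25.0 CPM in DOX libraries (log2 1.70 ± 0.16, adjusted p = 1.26e-07, edgeR). Both proteases were higher in ATRA+DOX replicate 1 than in replicates 2 and 3. LAMP2 and CTSA rose by log2 0.73 ± 0.08 and 0.72 ± 0.10. SGSH again rested on few reads and on the filter, with 71 counts in the 3 ATRA+DOX libraries and 4 in the 3 DOX libraries (log2 3.88 ± 0.59). TFEB rose by log2 0.60 ± 0.10 (adjusted p = 1.38e-04, edgeR), and TFE3 by 0.33 ± 0.11 (adjusted p = 0.0343). The TFE3 call was lost without DOX replicate 2 (adjusted p = 0.266, edgeR) and without ATRA+DOX replicate 2 (0.145) or 3 (0.104).

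ACP2, NPC1 and SCARB2, called here, had log2 fold changes of 0.53 ± 0.14, 0.41 ± 0.12 and 0.35 ± 0.12. Of these, SCARB2 lost its call in 12 of the 20 alternative settings. CTSH missed the threshold, at 2.42 ± 0.73 CPM in ATRA+DOX cells and 3.45 ± 0.685 CPM in DOX cells (log2 −0.56 ± 0.27, adjusted p = 0.170, edgeR). Of the other lysosomal genes, 9 of 27 hydrolases, 9 of 22 membrane proteins, 6 of 14 sorting genes and 5 of 18 autophagy genes were higher. LAPTM4B, a membrane protein, was lower (log2 −0.46 ± 0.10). Of the V-ATPase subunits 2 of 17 were higher (11.8%), near the 10.7% of all genes called higher. With ATRA in the absence of DOX 12 of 17 were higher. The median log2 fold change of the 17 was 0.10 with DOX and 0.33 without. The difference between the changes with and without DOX was negative in 14 of the 17 and called in none. Counts of calls alone therefore do not show that the responses differed.

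DOX without ATRA was followed by small increases. Against untreated cells, 10 of the 39 genes were higher in DOX cells and none lower (edgeR quasi-likelihood), against 15.1% of all genes called, 8.14% higher and 6.92% lower. The median log2 fold change was 0.12, against 0.01 over all genes tested. In 14 genes every DOX library was above every untreated library and in 2, CTSH and ARSB, every one was below; over all genes tested 30.8% were so separated, 17% upward and 13.9% downward. ACP5, among the 14, passed the filter only through the ATRA+DOX libraries and adds no support. Without SGSH, ACP5 and IDS, 10 of 36 genes were higher and none lower, with a median of 0.14. The called genes were CTSL, ASAH1, CTSA, CD63, CTSC, FUCA2, LAMP2, CTSS, NEU1 and CTSZ, so cathepsins made up 5 of the 10.

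CTSL was the gene with the largest change among these 10. It measured 21.8, 22.4 and 25.0 CPM in DOX libraries and 10.5, 11.2 and 10.2 CPM in untreated libraries, with a wide gap between the groups (log2 1.09 ± 0.18, adjusted p = 0.00101, edgeR). ASAH1 measured 64.9, 73.9 and 73.0 CPM in DOX libraries and 50.1, 52.7 and 47.3 CPM in untreated libraries (log2 0.49 ± 0.09, adjusted p = 0.00137, edgeR). CTSA measured 79.3, 85.0 and 82.2 CPM in DOX libraries and 52.0, 58.3 and 67.5 CPM in untreated libraries (log2 0.47 ± 0.10, adjusted p = 0.00481, edgeR). In each of the 3 genes the groups did not overlap. CD63 measured 132, 137 and 137 CPM in DOX libraries and 97.8, 107 and 114 CPM in untreated libraries (log2 0.35 ± 0.08, adjusted p = 0.00749, edgeR). CTSC measured 216, 228 and 224 CPM in DOX libraries and 170, 193 and 178 CPM in untreated libraries (log2 0.31 ± 0.07, adjusted p = 0.00979, edgeR). In both genes the DOX libraries lay above the untreated libraries.

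FUCA2, LAMP2, CTSS, NEU1 and CTSZ rose by log2 0.31 ± 0.08, 0.30 ± 0.08, 0.30 ± 0.08, 0.34 ± 0.10 and 0.23 ± 0.08. PSAP measured 284 ± 22.1 CPM in DOX cells and 272 ± 17.8 CPM in untreated cells and was not called (log2 0.07 ± 0.10). TFEB measured 41.2 ± 3.68 CPM in DOX cells and 41.5 ± 4.05 CPM in untreated cells (log2 0.00 ± 0.10), and TFE3 28.2 ± 3.23 and 24.6 ± 1.08 CPM (log2 0.18 ± 0.11). Neither factor was called.

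None of these 10 calls held in all 20 alternative settings. With the mitochondrial ribosomal RNA share as a term in the model none of the 10 was called by edgeR. The log2 fold changes of NEU1, CTSZ, FUCA2 and CTSS were then 0.14, 0.165, 0.175 and 0.185, and those of CTSC, ASAH1, CD63 and LAMP2 0.29, 0.38, 0.39 and 0.42. CTSL kept a log2 fold change of 1.09 (adjusted p = 0.168, edgeR) and CTSA one of 0.48 (adjusted p = 0.184). Genes called numbered 5 without untreated replicate 3 or without DOX replicate 2 (CD63, CTSA, CTSC, CTSL and ASAH1), 6 without untreated replicate 1 and 14 without DOX replicate 1. The share was 1.02% to 2.18% in DOX libraries and 2.54% to 4.60% in untreated libraries, with no overlap. A change with the share and a change with DOX therefore cannot be told apart, and the lost calls do not decide between them. The summed macrophage markers were also higher, at 49.5 to 62.2 CPM in DOX libraries and 38.2 to 43.0 CPM in untreated libraries, with 1 of the 5 tested markers called higher and 1 lower. The part of the macrophage markers in these changes was not tested. Of the other lysosomal genes, 8 of 17 V-ATPase subunits were higher in DOX cells and none lower, led by ATP6V1G1 (log2 0.53 ± 0.09). Of 27 hydrolases 5 were higher, and of the 4 cystatins tested 3 were, with CSTA at log2 0.61 ± 0.09. Of 17 regulators and relatives of TFEB 5 were higher and 1 lower. Of 22 membrane proteins 3 were higher, of 18 autophagy genes 2 were, and of 14 sorting genes 1 was higher and 1 lower. The shares called in these last 3 lists were 13.6%, 11.1% and 14.3%, below the 15.1% of all genes. Over all genes tested 8.14% were higher and 6.92% lower.

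The last pairwise comparison asks what DOX adds in cells given ATRA. In ATRA+DOX cells against ATRA cells, 1 of the 39 genes was higher and 6 were lower (edgeR quasi-likelihood), against 4.45% of all genes called, 1.89% higher and 2.56% lower. The median log2 fold change was −0.11, against 0.00 over all genes tested. Every ATRA+DOX library was below every ATRA library in 15 genes and above in 5. Over all genes tested 26.5% were so separated, 13.4% downward and 13.1% upward. ACP5, among the 5, passed the filter only through the ATRA+DOX libraries, and SGSH, among the 15, only with libraries given ATRA. Neither adds support. Without SGSH, ACP5 and IDS, 1 of 36 genes was higher and 6 were lower, with a median of −0.14. The sum over the 42 genes was 5399 ± 139 CPM in ATRA+DOX cells and 6166 ± 184 CPM in ATRA cells (SD, n = 3 each), a ratio of 0.876. PSAP, which was not called here, made up 60.8% of this difference, and the ratio without PSAP was 0.918. The mitochondrial ribosomal RNA share was 1.24% to 2.02% in ATRA+DOX libraries and 2.09% to 2.75% in ATRA libraries, lower in every ATRA+DOX library. A change with the share and a change with DOX cannot be told apart here either. With that share as a term, 6 of the 39 genes were called: PSAP in addition to LAMP1, CTSB, TPP1, GUSB and ARSB, while CTSL (adjusted p = 0.0643, edgeR) and CTSD (0.0794) were not.

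**Figure D3:**
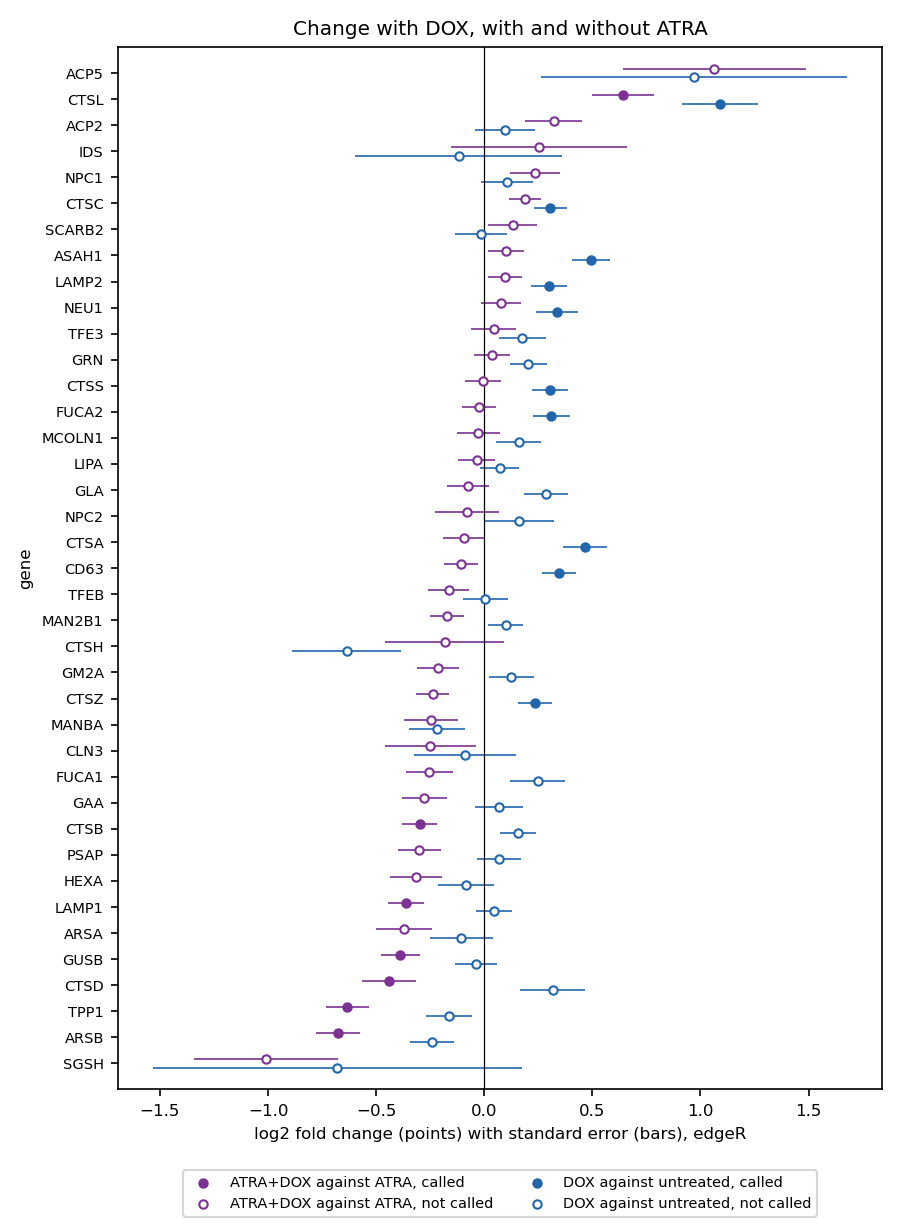
Log2 fold change of the 39 tested genes (points, with standard errors as bars) for ATRA+DOX against ATRA and for DOX against untreated; filled points passed the threshold of 0.05 on the adjusted p. CTSL is right of 0 in both comparisons, ARSB and TPP1 are left of 0 with ATRA at −0.68 and −0.63, and the calls in DOX against untreated are all right of 0.

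ARSB and TPP1 fell most among the called genes. ARSB measured 43.5, 40.0 and 38.7 CPM in ATRA+DOX libraries and 62.7, 62.3 and 71.0 CPM in ATRA libraries (log2 −0.68 ± 0.10, adjusted p = 1.59e-04, edgeR). TPP1 measured 102, 77.5 and 88.4 CPM in ATRA+DOX libraries and 131, 127 and 157 CPM in ATRA libraries (log2 −0.63 ± 0.10, adjusted p = 4.03e-04, edgeR). In both genes the groups did not overlap, and both calls held in all 20 alternative settings.

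GUSB measured 72.5, 63.3 and 65.1 CPM in ATRA+DOX libraries and 96.0, 80.6 and 86.0 CPM in ATRA libraries (log2 −0.39 ± 0.09, adjusted p = 0.0147, edgeR). LAMP1 measured 213, 203 and 218 CPM in ATRA+DOX libraries and 293, 241 and 280 CPM in ATRA libraries (log2 −0.36 ± 0.08, adjusted p = 0.0120, edgeR). CTSB measured 272, 248 and 275 CPM in ATRA+DOX libraries and 332, 317 and 329 CPM in ATRA libraries (log2 −0.30 ± 0.08, adjusted p = 0.0351, edgeR). These falls were modest, and no library of one group reached the other group. CTSD measured 78.8, 55.6 and 58.1 CPM in ATRA+DOX libraries and 90.6, 80.0 and 91.6 CPM in ATRA libraries (log2 −0.44 ± 0.12, adjusted p = 0.0468, edgeR). ATRA+DOX replicate 1 lay just under the ATRA libraries. The CTSD call was lost in 11 of the 20 alternative settings, with adjusted p of 0.0593 in the replicate block and up to 0.245 without ATRA+DOX replicate 2 (edgeR). The CTSB call was lost in 10 of the 20, with adjusted p up to 0.241 without the same library.

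CTSL was the exception in direction. It measured 97.7, 55.5 and 65.9 CPM in ATRA+DOX libraries and 49.9, 44.0 and 46.8 CPM in ATRA libraries (log2 0.64 ± 0.14, adjusted p = 0.0126, edgeR). It was the 1 gene called higher in both DOX comparisons, which share no library. Its CPM was higher in ATRA+DOX replicate 1 than in replicates 2 and 3, and the call was lost without ATRA replicate 2 (adjusted p = 0.0584, edgeR) or 3 (adjusted p = 0.0690). It was also lost with these 2 groups fitted alone (adjusted p = 0.165, edgeR), at equal depth (0.0973, log2 0.45) and with the mitochondrial ribosomal RNA term, which removed the CTSL call in both DOX comparisons. Per kilobase of exon, CTSL ranked 14 of the 42 genes in ATRA+DOX cells, 22 in ATRA cells, 22 in DOX cells and 31 in untreated cells.

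**Figure D4:**
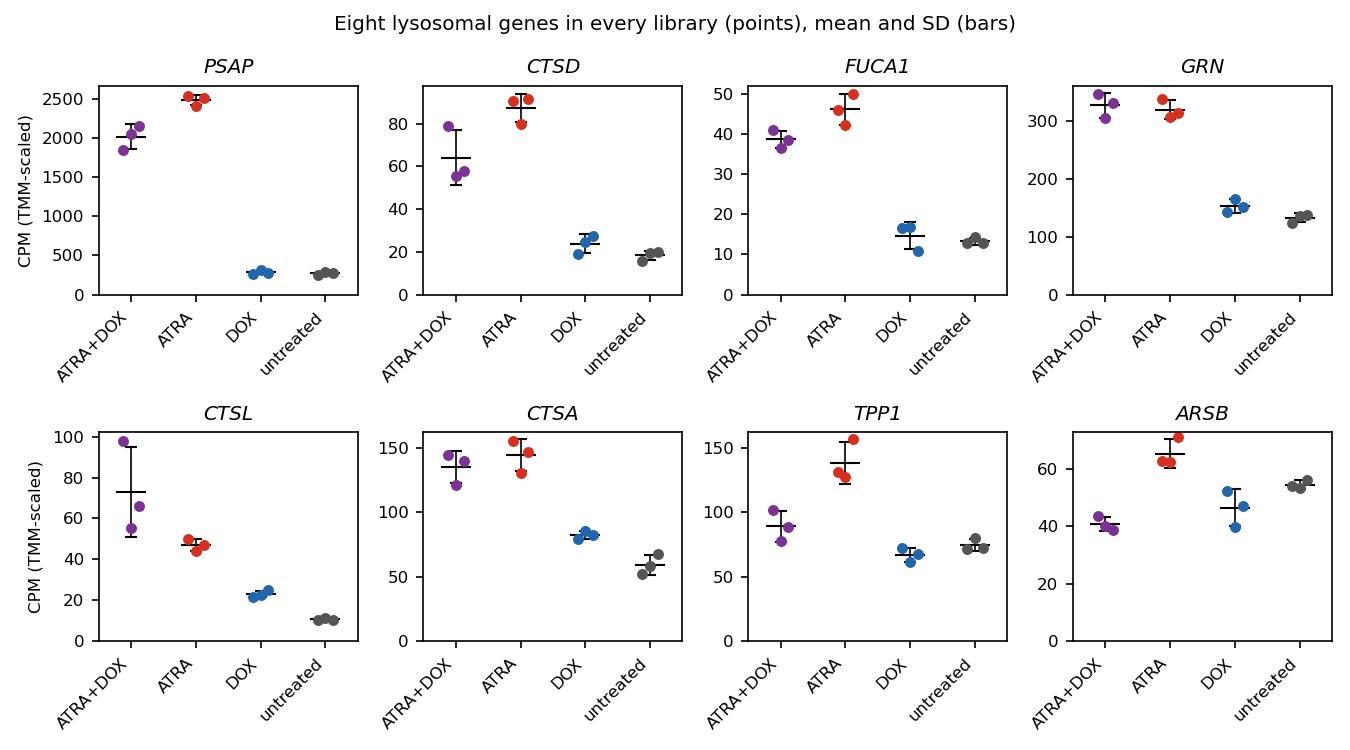
CPM of 8 lysosomal genes in every library (points), with the group mean and SD (bars); each panel starts at 0. PSAP, CTSD, FUCA1 and GRN are high in both groups with ATRA, CTSL is higher with DOX in both backgrounds, and TPP1 and ARSB are lower in ATRA+DOX than in ATRA cells.

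Genes just outside the calls included PSAP, with 2014 ± 159 CPM in ATRA+DOX cells and 2481 ± 66.1 CPM in ATRA cells (SD, n = 3 each). Its log2 fold change was −0.30 ± 0.10 (adjusted p = 0.0897, edgeR) and its groups did not overlap. CTSZ and SGSH also missed the threshold, at log2 −0.24 ± 0.08 (adjusted p = 0.0772, edgeR) and −1.01 ± 0.33 (adjusted p = 0.0897). TFEB and TFE3 were at 63.2 ± 6.91 and 35.1 ± 2.88 CPM in ATRA+DOX cells and at 70.7 ± 2.26 and 33.9 ± 1.33 CPM in ATRA cells, with log2 fold changes of −0.17 ± 0.10 and 0.04 ± 0.10, neither of them called. Leaving out single libraries gave 2 to 9 called genes: 2 without ATRA replicate 3, 3 without ATRA replicate 1 or ATRA+DOX replicate 2, 4 without ATRA replicate 2 or ATRA+DOX replicate 3 and 9 without ATRA+DOX replicate 1. CSF1R, among the macrophage markers, was also lower in ATRA+DOX than in ATRA cells (log2 −0.53 ± 0.14, adjusted p = 0.0365, edgeR), and the summed markers were 54.8 to 63.5 CPM in ATRA+DOX libraries and 55.7 to 71.2 CPM in ATRA libraries. Their part in these falls was not tested. Other lysosomal genes gave few calls here, with 1 V-ATPase subunit lower (ATP6V0A1), no hydrolase called and 1 membrane protein higher (CD164). Of 14 sorting genes 1 was lower and of 18 autophagy genes 1 was higher, against 4.45% of all genes called.

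Whether the change with ATRA differed in size with and without DOX was tested as the interaction, the log2 change with DOX minus that without. None of the 39 genes passed the threshold by edgeR, against 0.31% of all genes tested (0.0559% higher, 0.255% lower), while 18 had an unadjusted p under 0.05 (10.6% of all genes tested) and DESeq2 called 5. The interaction was negative in 33 of the 39 genes, that is, the ATRA change was smaller with DOX, with a median of −0.27. Over all genes tested it was negative in 8251 of 16104, with a median of −0.01. Without SGSH, ACP5 and IDS, which passed the filter only with libraries given ATRA, the median of the other 36 genes was −0.29. None of the 36 was called. The values nearest the threshold were those of CTSZ (−0.47 ± 0.11, adjusted p = 0.0590, edgeR), CTSA (−0.56 ± 0.14, 0.0795), CD63 (−0.45 ± 0.11, 0.0872), CTSB (−0.45 ± 0.12, 0.0950) and CTSD (−0.76 ± 0.19, 0.105). These are the 5 genes that DESeq2 called, with adjusted p from 0.00382 to 0.0357. Without DOX replicate 1 edgeR called 9 genes, without ATRA+DOX replicate 1 it called 3 (CTSA, CTSD and CTSL), and with no filter on low counts 2 (CTSA and CTSD). For single genes the call therefore depended on the tool and on single libraries.

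CST3, cystatin C, stood beside them with the 1 called interaction among the lysosomal and cystatin genes tested. It measured 130 ± 5.19 CPM in ATRA+DOX cells, 168 ± 10.9 CPM in ATRA cells, 127 ± 11.2 CPM in DOX cells and 96.5 ± 9.93 CPM in untreated cells (SD, n = 3 each). Its interaction was −0.75 ± 0.13 (adjusted p = 0.00744, edgeR). The level in ATRA+DOX cells was below that in ATRA cells (log2 −0.37 ± 0.09, adjusted p = 0.0164, edgeR) and the level in DOX cells above that in untreated cells (log2 0.38 ± 0.09, adjusted p = 0.00789).

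Per kilobase of exon, PSAP, CTSZ, GRN, LAMP1 and CTSB held ranks 1 to 5 of 42 in ATRA+DOX and in ATRA cells, and CTSZ, PSAP, LAMP1, GRN and MAN2B1 did in DOX and in untreated cells. LGMN, legumain, an asparaginyl endopeptidase, summed to 5, 10, 6 and 4 counts over the 3 libraries of the ATRA+DOX, ATRA, DOX and untreated groups. IFI30, the lysosomal thiol reductase, summed to 2, 5, 0 and 4 counts, and CD68 to 36, 21, 19 and 18 counts. None of these 3 genes was tested. IFI30 shares 87.9% of its exon bases with a gene model on the same strand in GENCODE 29. As for CD68, its level is uncertain and its low counts need not mean low expression.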

How the data were processed

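Per the labels' protocols, total RNA was read in pairs on an Illumina NovaSeq. The authors deposited raw counts, whole numbers with no normalization, 1 for each gene in each library. The tools named are FastQC, STAR and HTSeq and the build is GRCh38, per the submitters' processing notes. Tool versions, gene annotation and strandedness of the counting are not given in the sources used here, so a gene and an overlapping or antisense gene cannot be told apart.

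The 12 libraries were grouped by the labels into 4 groups of 3. Whether the replicates were separate cultures is not stated beyond the word biological, so p-values measure the spread between these libraries. edgeR 4.0.16 in R 4.3.3 kept 16104 genes (filterByExpr) and scaled libraries by TMM. A robust quasi-likelihood model with 4 group means was fitted to all 12 libraries. P-values were adjusted by Benjamini-Hochberg over the 16104 genes, and called means an adjusted p under 0.05. Standard errors are those implied by the F test. The biological coefficient of variation was 9.54%. CPM values use the TMM-scaled totals. Exon lengths and overlaps come from GENCODE 29. The 23 empty columns of the table were not used.

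The 42 genes and the other lists were chosen with earlier results of these data known. All 42 may be named. Values in every library are given for called genes with small adjusted p, and of each other list up to 4 called genes with small adjusted p are named, others only where a result turns on them. Alternatives were DESeq2 1.42.0, library size scaling, no filter, the compared groups alone, all libraries thinned to 2685984 counts, a mitochondrial ribosomal RNA term, a replicate block, and leaving out each library, or untreated replicate 3 with DOX replicate 3. The fit was tested on simulated counts: for ATRA against untreated (15793 genes) it found 68.7% of genes changed 1.5-fold, 94% of those changed 2-fold and 100% of those changed 4-fold, and for the interaction (15834 genes) 34.3%, 74.6% and 97%. Some genes of the other lists are not reported here.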

Additional observations from a re-analysis of the deposited data

Results flagged for a closer look

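CD63 and CTSZ were singled out because the order of their libraries under an agent reversed when the other agent was present. That order is part of what the interaction measures, so the interaction values below describe these genes and give no independent support. How many of all genes show such a reversal was not counted. For CD63, every ATRA library was above every untreated library while every ATRA+DOX library was below every DOX library. The log2 fold change was −0.08 ± 0.08 for ATRA+DOX against DOX, which was not called (adjusted p = 0.571, edgeR), and 0.38 ± 0.08 for ATRA against untreated. The highest ATRA+DOX library, at 131.8 CPM, lay just under the lowest DOX library, at 132.4 CPM. The interaction was −0.45 ± 0.11 and missed the threshold (adjusted p = 0.0872, edgeR).

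For CTSZ, every ATRA+DOX library was below every ATRA library while every DOX library was above every untreated library. The log2 fold change was −0.24 ± 0.08 for ATRA+DOX against ATRA, which was not called (adjusted p = 0.0772, edgeR), and 0.23 ± 0.08 for DOX against untreated. The interaction was −0.47 ± 0.11 and also missed the threshold (adjusted p = 0.0590, edgeR). DESeq2 called both interactions, with adjusted p of 0.0317 for CD63 and 0.00382 for CTSZ.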

How the results depend on the processing

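No called change of the lysosomal genes changed sign under the 20 alternatives, and of those called 27 of 32 (ATRA against untreated), 0 of 10 (DOX against untreated), 2 of 7 (ATRA+DOX against ATRA) and 18 of 27 (ATRA+DOX against DOX) stayed called under every alternative that gave a value, which was 20, but 19 for SGSH and 18 or 19 for ACP5, both left untested at equal depth. Calls for DOX against untreated numbered 6 with those groups alone, 5 at equal depth, 0 with the mitochondrial ribosomal RNA term and 3 without untreated replicate 3 and DOX replicate 3, and over all genes 1496, 1097, 88 and 174 against 2425. For the interaction they numbered 5 with DESeq2 and 2 without the filter, against 0. Over all genes the interaction gave 120 with DESeq2, 33 with library size scaling, 151 without the filter, 18 at equal depth and 9 without those 2 libraries, against 50. At equal depth 2687 genes were called for ATRA against untreated, 376 for ATRA+DOX against ATRA and 1898 for ATRA+DOX against DOX, against 4643, 717 and 3052, and with the groups alone ATRA+DOX against ATRA gave 1092. Equal depth discards counts, and the causes of the other shifts were not tested.

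Leaving out single libraries gave 30 to 34 calls among the lysosomal genes for ATRA against untreated, 5 to 14 for DOX against untreated, 2 to 9 for ATRA+DOX against ATRA, 22 to 28 for ATRA+DOX against DOX and 0 to 9 for the interaction. Over all genes the ranges were 3485 to 5364, 714 to 4383, 269 to 1048, 2208 to 3929 and 19 to 775 in the same order. Leaving out DOX replicate 1 gave the highest counts of 4383, 1048, 3929 and 775. With a replicate block the lysosomal calls were 33, 9, 6, 27 and 0, and over all genes 4664, 2317, 746, 3081 and 62. Of the same-numbered pairs of libraries 4 of 18 had a correlation over 0.1, against 9 of 36 other pairs. This count cannot show whether the replicate numbers mark shared cultures or batches. The highest correlations were those of untreated replicate 3 with ATRA+DOX replicate 1 (0.334) and with DOX replicate 1 (0.319).

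Other scalings moved the median of all genes by under 0.1 on the log2 scale. Counts limit SGSH, ACP5 and IDS most, with 4, 10 and 28 counts in the DOX libraries, and IDS had none in DOX replicate 3.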
